A study of Mus musculus with 6 samples.

Results

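Intraepithelial lymphocytes are T cells that sit between the enterocytes of the gut lining, and preparations of the jejunal epithelium commonly carry their RNA. The 10 genes followed here mark these cells: the CD3 chains Cd3d, Cd3e, Cd3g and Cd247, the co-receptor chains Cd8a and Cd8b1, the surface and granule membrane proteins Cd7 and Nkg7, and the granzymes Gzma and Gzmb. They were found in the table by gene symbol. All 10 were among the 19616 genes of the deposited count table, and all 10 passed the filter on low counts that left 15618 genes for testing.

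The table came from RNA-Seq of jejunal epithelial cells, enriched with EDTA, from mice aged 3 months. The mice had a mixed C57BL/6J, 129SV and CD1 background. The 3 controls (mice C1, C3 and C3-3) were wildtype. The 3 Hdac1/2-deleted mice (H1, H5 and H9) were villin-Cre Hdac1-/-; Hdac2-/-. Villin-Cre recombines floxed alleles in intestinal epithelial cells, so the lymphocytes themselves were not the target of the deletion, and each library was a mixture of epithelial cells with whatever leukocytes the EDTA wash released. Each library was 1 mouse, so the p-values set each group difference against the spread between mice.

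The CD3 chains carry the signal of the T cell receptor into the cell. In the gut epithelium many T cells carry the gamma-delta receptor, and many carry CD8 as a pair of alpha chains in place of the alpha-beta pair found on most cytotoxic T cells of the blood. They hold granules with granzymes, serine proteases that enter a target cell, and they depend on epithelial signals such as interleukin 15 and the butyrophilin-like proteins.

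The libraries held 36111035 to 65902344 counts. Hdac1 fell from 40.8 ± 7.32 to 3.77 ± 1.15 CPM (SD, n = 3 mice per group), whereas Hdac2 was at 27.7 ± 4.71 CPM in controls and 24.5 ± 2.70 CPM in Hdac1/2-deleted mice. CPM here is the depth-scaled count, with library sizes adjusted by TMM. The 12 epithelial markers that check the tissue summed to 17622 to 19704 CPM in controls and 14601 to 17787 CPM in Hdac1/2-deleted mice.

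All 10 markers had a lower mean in the Hdac1/2-deleted mice, with log2 fold changes from -1.85 to -0.38 and a median of -1.28, beside a median of -0.01 over all genes tested. Cd3g and Cd8a were called lower, that is, with a drop of 2-fold or more and a Benjamini-Hochberg adjusted p up to 0.05 in the quasi-likelihood test of edgeR. No marker was called higher. Of all genes tested, 12.7% were called lower and 12.4% were called higher. Without a limit on p, 8 of the 10 markers had a fitted drop of 2-fold or more, against 15.6% of all genes. The Hdac1/2-deleted values overlapped the control values for each of the 10 markers, whereas 26.6% of all genes were lower in every Hdac1/2-deleted mouse than in every control.

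C1 stood apart from the other controls. It had the lowest control value for all 10 markers, against 34.9% of all genes tested. C3 stood at 1.82 to 4.28 times the level of C1 over the markers, and C3-3 stood at 2.44 to 3.75 times that level. Summed over the 10 markers, C1 held 141 CPM, C3 held 545 CPM and C3-3 held 460 CPM, while H1 held 69.8 CPM, H5 held 172 CPM and H9 held 141 CPM. C1 lay within the range of the Hdac1/2-deleted mice. H9 was above C1 for 8 markers, H5 was above C1 for 6 and H1 was below C1 for every marker. With C1 left out, every Hdac1/2-deleted mouse was below both remaining controls for 9 of the markers, against 31.9% of all genes. In that setting edgeR called 8 of the 10 lower, against 12.5% of all genes. C1 was singled out by these same values, and leaving it out removed the lowest control of all 10 markers but of 34.9% of all genes. The shares without C1 are therefore not a like-for-like background. With any other mouse left out edgeR called 0 or 1. With all 6 mice DESeq2 called 6 lower, against 10.8% of all genes. In bulk RNA, fewer lymphocytes and less of each RNA per lymphocyte cannot be told apart.

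**Figure D1:**
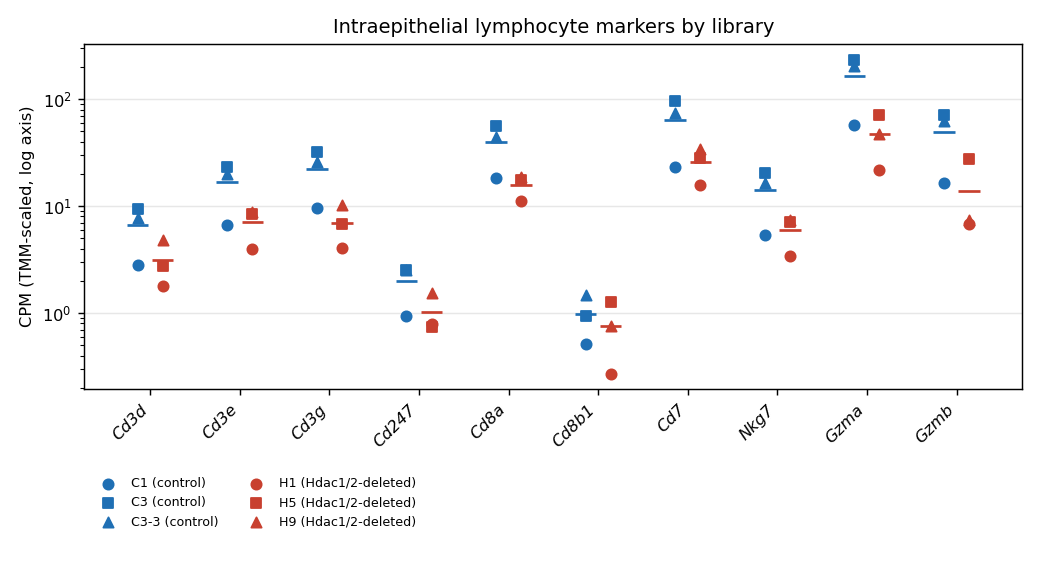
Level of each marker in each library, in CPM on a log axis. Symbols are mice (blue, control; red, Hdac1/2-deleted) and bars are group means (n = 3 mice). For all 10 markers C1 lies below C3 and C3-3 and within the range of the Hdac1/2-deleted mice.

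Of the CD3 chains, Cd3g had the largest drop. CD3 gamma pairs with CD3 epsilon within the receptor complex, and its gene (chr9:44969572-44980431, minus strand, GRCm38) lies head to head with Cd3d, their starts 1355 bases apart. Cd3g stood at 9.54, 32.1 and 25.7 CPM in C1, C3 and C3-3, and at 4.08, 6.74 and 10.2 CPM in H1, H5 and H9. Only H9 reached above C1. Its fit gave a log2 fold change of -1.68 (SE 0.51, adjusted p = 0.0341, edgeR). The call was lost when any of C3, C3-3, H1 or H5 was left out (adjusted p 0.0753 to 0.101).

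Cd3e (chr9:44998740-45009627, minus strand) encodes CD3 epsilon, which takes part in each CD3 dimer that contains gamma or delta. It stood at 6.66, 23.5 and 20.1 CPM in C1, C3 and C3-3, and at 3.99, 8.47 and 8.74 CPM in H1, H5 and H9. H5 and H9 were above C1 and far below the other controls. Its log2 fold change of -1.25 (SE 0.50) did not pass the test (adjusted p = 0.0875, edgeR). Without C1 it was -1.62 (adjusted p = 0.0052, edgeR).

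Cd3d (chr9:44981786-44987339, plus strand) encodes CD3 delta, the other partner of epsilon. It stood at 2.82, 9.36 and 7.68 CPM in C1, C3 and C3-3, and at 1.78, 2.76 and 4.79 CPM in H1, H5 and H9. H9 exceeded C1, and H5 lay just under it. For Cd3d the log2 fold change was -1.09 (SE 0.50, adjusted p = 0.117, edgeR).

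Cd247 (chr1:165788681-165877277, plus strand) encodes the zeta chain, which carries most of the signalling motifs of the complex. It was the marker with the lowest level per length of exon. In CPM it stood at 0.936, 2.54 and 2.54 in C1, C3 and C3-3, and at 0.796, 0.737 and 1.54 in H1, H5 and H9. It was the 1 marker whose lowest library was H5 rather than H1. Cd247 differed by -0.96 on the log2 scale (SE 0.47, adjusted p = 0.137, edgeR). The span of Cd247 overlaps that of Pou2f1 in the annotation, and whether their exons overlap was not examined. The strand setting of the counting is not given in the sources used here. Where exons of both genes overlap, reads counted without strand cannot be told apart. The same holds for Cd7, which overlaps Gm11775, and for Cd3e, which overlaps Gm48719 and Gm48720.

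The stretches of 250 bases before the RefSeq starts of Cd3d and Cd3e (GRCm38.p6, each in the direction of its gene) are shown because, with that of Cd247, they were the CD3 promoters that held the core GGAAGT of ETS factors or its reverse complement ACTTCC, in capitals.
Cd3d, chr9:44981536-44981785, plus strand: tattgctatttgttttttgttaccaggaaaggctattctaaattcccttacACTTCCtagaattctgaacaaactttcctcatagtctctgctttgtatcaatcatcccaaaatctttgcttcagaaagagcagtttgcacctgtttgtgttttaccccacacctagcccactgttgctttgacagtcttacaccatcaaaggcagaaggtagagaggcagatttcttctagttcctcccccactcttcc
Cd3e, chr9:45009612-45009861, minus strand: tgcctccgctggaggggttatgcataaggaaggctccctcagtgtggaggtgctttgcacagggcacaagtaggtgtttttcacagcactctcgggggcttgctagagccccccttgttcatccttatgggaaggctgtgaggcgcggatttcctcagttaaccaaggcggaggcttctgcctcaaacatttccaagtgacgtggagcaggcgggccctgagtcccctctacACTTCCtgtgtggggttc
Promoter sequence was found for 8 of the 10 markers, not for Cd8b1 or Cd7. The ETS core was in 3 of the 8, against 19.7% of 32851 promoters of that length, both strands searched. The promoter of Cd3g, between Cd3d and its own first exon, held neither this core nor any of the other motifs searched.

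Cd8a encodes the alpha chain shared by both forms of CD8, and its gene (chr6:71373427-71379173, plus strand) starts 35933 bases beyond the end of Cd8b1. Cd8a stood at 18.1, 55.9 and 44.2 CPM in C1, C3 and C3-3, and at 11.2, 17.6 and 18.6 CPM in H1, H5 and H9. H9 was just above C1, and H5 just below it. Cd8a had a log2 fold change of -1.32 (SE 0.41, adjusted p = 0.0378, edgeR). The call was kept only when C1 was the mouse left out; without any of the other mice the adjusted p ran from 0.0744 to 0.115 in edgeR.

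Cd8b1 (chr6:71322788-71337494, plus strand), the beta chain gene, was scarce. It had 34, 52 and 78 counts in C1, C3 and C3-3, or 0.513, 0.936 and 1.47 CPM, and 20, 48 and 46 counts in H1, H5 and H9, or 0.270, 1.26 and 0.748 CPM. The groups were intermixed, with H5 above both C1 and C3. The log2 fold change of -0.38 (SE 0.59, adjusted p = 0.644, edgeR) was the smallest of the 10 and changed sign without C3-3 (0.06) or without H1 (0.05).

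The ratio of Cd8b1 to Cd8a, in CPM, was 0.0283, 0.0168 and 0.0332 in C1, C3 and C3-3, and 0.0242, 0.0719 and 0.0403 in H1, H5 and H9. H5 and H9 were above all controls, while H1 lay among them. The log2 ratio was higher by 0.72 in Hdac1/2-deleted mice (exact permutation test, two-sided, p = 0.3; the smallest p for 3 against 3 mice is 0.1).

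Cd7 and Nkg7 overlapped through the same mice as Cd3e. CD7 is a surface protein of T and NK cells, and its gene (chr11:121036747-121039418, minus strand) had the second highest level per length of the 10. Cd7 stood at 23.1, 95.7 and 73.8 CPM in C1, C3 and C3-3, and at 15.8, 28.1 and 34.3 CPM in H1, H5 and H9. H5 and H9 lay above C1, and all 3 Hdac1/2-deleted mice lay well under C3 and C3-3. The log2 fold change was -1.30 (SE 0.55, adjusted p = 0.108, edgeR).

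NKG7 is a membrane protein of cytotoxic granules (chr7:43437073-43438249, plus strand). Nkg7 stood at 5.34, 20.4 and 16.5 CPM in C1, C3 and C3-3, and at 3.40, 7.03 and 7.35 CPM in H1, H5 and H9. The same mice overlapped as for Cd7. Nkg7 had a log2 fold change of -1.25 (SE 0.52, adjusted p = 0.0929, edgeR). Without C1, both passed the test, Cd7 at -1.70 (adjusted p = 0.0050) and Nkg7 at -1.63 (adjusted p = 0.0049) in edgeR.

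The granzymes had the largest fitted drops and the largest standard errors. Granzyme A (chr13:113093825-113100981, minus strand) is a tryptase of cytotoxic granules. Gzma stood at 57.0, 234 and 206 CPM in C1, C3 and C3-3, and at 21.8, 71.8 and 47.2 CPM in H1, H5 and H9. H5 was above C1, and the other Hdac1/2-deleted mice were below it. The log2 fold change was -1.82 (SE 0.67, adjusted p = 0.0783, edgeR), and it passed the test without C1 at -2.22 (adjusted p = 0.0173).

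Granzyme B (chr14:56258838-56262260, minus strand) cleaves after aspartate and activates caspases in the target cell. Gzmb stood at 16.5, 70.6 and 62.0 CPM in C1, C3 and C3-3, and at 6.75, 27.4 and 7.46 CPM in H1, H5 and H9. H5 alone was above C1, and it stood apart from H1 and H9. Gzmb had a log2 fold change of -1.85 (SE 0.80, adjusted p = 0.124, edgeR). Without H5 it was -2.80 (adjusted p = 0.0278, edgeR), the only setting with a mouse left out in which Gzmb was called.

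The 250 bases before the RefSeq starts of Gzma and Gzmb are shown, in the direction of each gene, because they and that of Nkg7 held the RUNX core TGTGGT or its reverse complement ACCACA, in capitals. RUNX factors take part in the cytotoxic programme of T cells.
Gzma, chr13:113100982-113101231, minus strand: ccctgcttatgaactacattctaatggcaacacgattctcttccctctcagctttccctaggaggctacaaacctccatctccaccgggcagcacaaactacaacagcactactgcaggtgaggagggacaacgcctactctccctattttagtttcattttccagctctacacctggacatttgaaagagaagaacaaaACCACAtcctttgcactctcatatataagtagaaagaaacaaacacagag
Gzmb, chr14:56262335-56262584, minus strand: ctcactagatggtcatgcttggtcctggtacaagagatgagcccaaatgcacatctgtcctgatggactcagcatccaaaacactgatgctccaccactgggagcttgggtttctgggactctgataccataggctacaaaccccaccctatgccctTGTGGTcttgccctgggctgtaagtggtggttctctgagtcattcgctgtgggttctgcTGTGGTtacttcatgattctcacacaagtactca
The RUNX core was in 3 of the 8 marker promoters, with 2 matches in that of Gzmb, against 14.0% of all promoters. The exact letters CAGCTG of the E-box and TATAAA of the TATA motif were in none of the 8, against 13.0% and 12.4% of all promoters. Variants of TATAAA, such as the letters tatataag near the end of the Gzma stretch, were not searched. The promoter of Cd8a held none of the motifs searched. These are matches of letters, and binding was not measured.

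Granzyme RNA per CD3 RNA was set within each library, the CD3 level being the sum of Cd3d, Cd3e, Cd3g and Cd247. Gzma stood at 2.86, 3.48 and 3.67 times CD3 in C1, C3 and C3-3, and at 2.05, 3.84 and 1.86 times CD3 in H1, H5 and H9. By this sum, H1 and H9 were below all controls, and H5 was above all of them. With Cd3e alone as the CD3 level, H5 was just below C1, the lowest control. The log2 ratio to the sum differed by -0.44 (exact permutation test, two-sided, p = 0.4).

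Gzmb per CD3 was 0.828, 1.05 and 1.11 in C1, C3 and C3-3, and 0.634, 1.47 and 0.295 in H1, H5 and H9. The order of the mice was as for Gzma by the same sum, with H5 highest of the 6. The log2 ratio differed by -0.60 (exact permutation test, two-sided, p = 0.6). C1, low for each marker, was thus much closer to the other controls in granzyme per CD3.

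**Figure D2:**
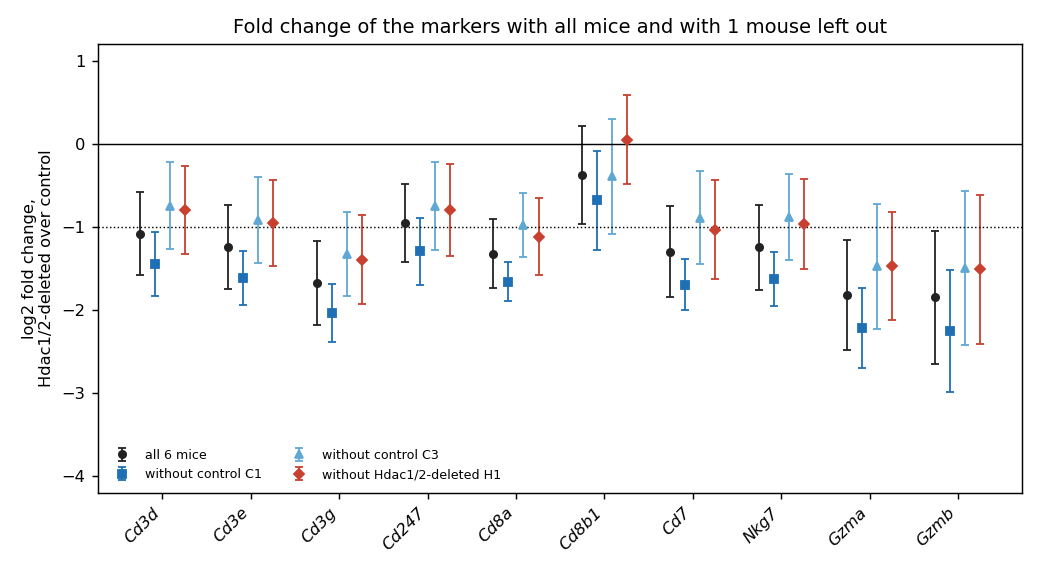
Log2 fold change (Hdac1/2-deleted over control) of each marker from edgeR with all 6 mice and without C1, C3 or H1. Bars are 1 SE, and the dotted line marks a 2-fold drop. Without C1 the changes are larger for all 10 markers, and Cd8b1 crosses 0 without H1.

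Per length of exon, the control levels ran from Gzma (165 RPKM) over Cd7 (56.7), Gzmb (34.6), Nkg7 (15.4), Cd8a (10.8), Cd3g (6.87), Cd3e (4.10), Cd3d (3.65) and Cd8b1 (0.656) to Cd247 (0.376 RPKM). RPKM was CPM per kilobase of joined exons. Neighbours in this order overlapped within 1 SD of their control means, apart from Cd3d and Cd8b1. Within single libraries the order was steadier. The upper gene was the higher in all 6 libraries for 6 of the 9 neighbouring pairs. Gzmb was above Nkg7 in 5, Cd3g above Cd3e in 5 and Cd3e above Cd3d in 4. In Hdac1/2-deleted mice Gzma was at 46.7, Cd7 at 23.0 and Gzmb at 9.67 RPKM.

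The genes whose levels over the 6 libraries were nearest to the mean profile of the markers were Fli1, Trgv2, Cst7, Fcer1g and Il2rb. The distance was the root mean square difference of centred log2 CPM, and it was 0.109 for Fli1, 0.131 for Trgv2, 0.161 for Cst7, 0.181 for Fcer1g and 0.185 for Il2rb. The median over all genes was 0.986, and the markers ran from 0.058 to 0.643. Fli1 is an ETS factor of blood cells, Trgv2 a variable segment of the gamma receptor, Cst7 a protease inhibitor of cytotoxic cells, Fcer1g a signalling adaptor of Fc receptors, and Il2rb the receptor chain that interleukins 2 and 15 share. Their log2 fold changes, from -1.57 to -1.13, follow from this choice and carry no test.

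Of 27 other genes of T cell receptor signalling tested, 5 were called lower and 1 higher, with a median log2 fold change of -0.87. Those 5 were 18.5%, beside 12.7% of all genes called lower and 12.4% called higher. C1 was the lowest control for all 27. Among those called lower were the gamma receptor constant genes Tcrg-C1 (-1.48) and Tcrg-C2 (-1.61), the receptor-proximal kinase Txk (-1.61) and the adaptor Fyb (-1.15). Txk was the 1 gene of the 27 that was lower in every Hdac1/2-deleted mouse than in every control, against 26.6% of all genes. Cd4, the co-receptor of helper T cells, was at 0.589, 0.756 and 0.602 CPM in C1, C3 and C3-3, and at 1.17, 1.76 and 3.06 CPM in H1, H5 and H9. Its log2 fold change of 1.62 was called higher (adjusted p = 0.0126, edgeR), without overlap, and the call was lost without H9. Trac, the alpha receptor constant gene, was at 2.17 to 4.95 CPM in controls and 3.93 to 4.37 CPM in Hdac1/2-deleted mice (log2 fold change 0.13). The beta receptor constant genes Trbc1 (-1.08) and Trbc2 (-0.78) were lower but not called, with groups that overlapped. The number called lower was 16 without C1 and 1 without C3, C3-3, H1 or H5 in turn.

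The median log2 fold change of 18 other cytotoxic and NK receptor genes tested was -1.02. Among them, 5 (27.8%, against 12.7% of all genes) were called lower and 0 higher. These were the signalling adaptor Hcst (-2.19), the death ligand Fasl (-2.09), the receptors Klrd1 (-2.09) and Klra5 (-1.80), and Cd244 (-1.48). All 5 were lower in each Hdac1/2-deleted mouse than in each control, so C1 did not overlap for these. That was 5 of the 18, against 26.6% of all genes. Ccl5, a chemokine of cytotoxic T cells, was at 25.1, 120 and 79.3 CPM in C1, C3 and C3-3, and at 9.24, 26.6 and 24.4 CPM in H1, H5 and H9 (log2 fold change -1.90, adjusted p = 0.0727, edgeR). The number called lower was 12 without C1 and 2 to 4 without any other mouse.

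Of 16 genes of homing and residence, 1 was called lower (6.25%, against 12.7% of all genes) and 0 higher. That gene was Itga1, the alpha chain of a collagen-binding integrin of resident T cells, at 11.8, 14.1 and 14.5 CPM in C1, C3 and C3-3, and 1.11, 2.00 and 1.35 CPM in H1, H5 and H9. Its log2 fold change was -3.19 and its groups were far apart, C1 included. Unlike for the markers, C1 lay near the other controls for Itga1, and which cells made its RNA was not measured. Itgae, the integrin chain CD103 that binds E-cadherin on the epithelium, was at 12.5, 50.5 and 41.7 CPM against 9.58, 13.4 and 19.9 CPM, with C1 again overlapped (log2 fold change -1.29, adjusted p = 0.0958, edgeR). The number called lower was 8 without C1, 2 without H9 and 1 without any other mouse.

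Of 19 lymphocyte transcription factor genes tested, 2 were called lower and 2 higher, beside 12.7% and 12.4% of all genes. Prdm1 (log2 fold change -1.88) and Zbtb16 (-4.70) fell. Id2 (1.40) rose, as did Eomes, which was at 0 to 0.0604 CPM in controls and 2.62 to 4.29 CPM in Hdac1/2-deleted mice. Several of these factors, Id2 and Prdm1 among them, are also made by epithelial cells. Runx3 (-1.44) and Tbx21 (-1.36) did not pass the test. Zbtb16 differed widely among controls, at 11.4, 0.324 and 3.44 CPM in C1, C3 and C3-3, against 0.121 to 0.276 CPM in Hdac1/2-deleted mice. The number called lower was 6 without C1 and 1 without H1, H5 or H9 in turn.

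Of the genes by which the epithelium holds or addresses its lymphocytes, 18 of 24 listed were in the table and all were tested. Of these, 7 were called lower (38.9%, against 12.7% of all genes) and 0 higher, with a median log2 fold change of -1.05. For 11 of the 18, all Hdac1/2-deleted mice were lower than all controls, against 26.6% of all genes. C1 was the lowest control for 5 of the 18 (27.8%), near the 34.9% of all genes tested. Btnl1, which with Btnl6 shapes the gamma-delta T cells of the gut, was at 367, 469 and 472 CPM in C1, C3 and C3-3, and at 122, 128 and 147 CPM in H1, H5 and H9 (log2 fold change -1.72). H2-T3, which encodes the thymus leukemia antigen that binds CD8 alpha pairs, was at 383, 648 and 365 CPM against 95.4, 104 and 123 CPM (-2.12). Il15, the survival cytokine of these cells, was at 19.8, 15.0 and 20.6 CPM against 7.11, 4.61 and 5.48 CPM (-1.68). For these 3 genes the groups were well apart.

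Btnl2 (-1.49), H2-T22 (-3.10), Tnfrsf14 (-1.76) and Il7 (-2.64) were the other genes called lower. H2-T22 and H2-T3 belong to a family of close copies, so their counts are uncertain where reads were shared. Btnl6 was at 174, 14.2 and 345 CPM in C1, C3 and C3-3, and at 18.5, 11.6 and 14.9 CPM in H1, H5 and H9. The control C3 lay among the Hdac1/2-deleted mice, and Btnl6 did not pass the test (log2 fold change -3.56, adjusted p = 0.0622, edgeR). Cdh1, the E-cadherin gene, was at 830 to 950 CPM against 597 to 754 CPM (log2 fold change -0.40, not called). The number called lower was 7 to 8 whichever mouse was left out.

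**Figure D3:**
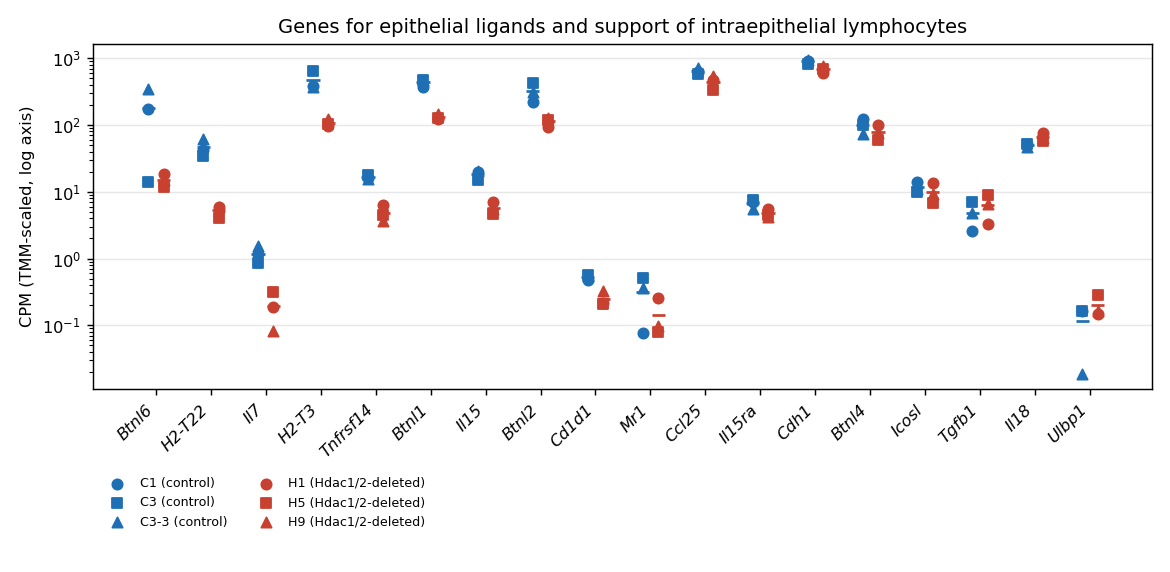
Level of each of the 18 epithelial ligand and support genes in each library, in CPM on a log axis, ordered by log2 fold change. Symbols are mice and bars are group means (n = 3 mice). For Btnl1, H2-T3, H2-T22 and Il15 every Hdac1/2-deleted mouse is below every control, and C3 stands apart for Btnl6.

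Markers of other cells were followed over the same libraries. Of 20 common leukocyte genes, 3 were called lower (15.0%, against 12.7% of all genes) and 1 higher. The median log2 fold change was -0.62, and C1 was the lowest control for 19. The number called lower was 9 without C1 and 2 to 4 without any other mouse. Ptprc, the CD45 gene, was at 8.21, 20.2 and 21.1 CPM in C1, C3 and C3-3, and at 6.87, 6.24 and 12.3 CPM in H1, H5 and H9. The 16 macrophage and dendritic cell markers in the table summed to 77.4 to 88.5 CPM in controls and 49.5 to 78.5 CPM in Hdac1/2-deleted mice, and without Cd14 to 20.2 to 29.0 CPM in controls and 35.6 to 67.5 CPM in Hdac1/2-deleted mice. Of 15 tested, 4 were called higher and 1 lower, beside 12.4% and 12.7% of all genes, with a median of 0.82. The number higher was 2 without C3, C3-3 or H9 in turn. Csf1r (log2 fold change 1.75) and Mrc1 (3.32) were among the 4. Cd14, the 1 called lower, was at 48.4 to 67.9 CPM in controls and 11.0 to 18.6 CPM in Hdac1/2-deleted mice.

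Of 10 B and plasma cell markers tested, 0 were called lower and 1 higher, beside 12.7% and 12.4% of all genes, with a median of -0.22. Igha, the IgA heavy chain of plasma cells, was highest in C1, at 551 CPM, and was at 88.1 and 36.1 CPM in C3 and C3-3. Of 5 granulocyte and mast cell markers tested, 0 were called by edgeR or DESeq2. Kit, the 1 with an unadjusted p under 0.05, was lower by less than 2-fold (log2 fold change -0.71, adjusted p = 0.0185, edgeR). The median of this list, 1.67, rested on H9, where Mcpt1, a mast cell protease, was at 55.9 CPM against 5.92 and 11.3 CPM in H1 and H5. Of 14 stromal and endothelial markers, 5 were called lower (35.7%, against 12.7% of all genes) and 1 higher, with a median of -0.48. The number lower was 2 without H1 and 3 without H9. The smooth muscle genes Acta2, Des, Tagln and Myh11 were among the 5. Acta2 was at 12.5, 11.1 and 0.602 CPM in C1, C3 and C3-3 and at 0.0263 to 0.0975 CPM in Hdac1/2-deleted mice, and Myh11 was at 25.4, 12.6 and 0.452 CPM against 0 to 0.0135 CPM. These genes separated C3-3 from the other controls, whereas the markers separated C1. Of 12 epithelial markers, 0 were called lower and 1, Krt18, higher, with a median of -0.01, and Krt18 was not called without C3 or without H5. The part of these other cells in the marker levels was not tested.

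**Figure D4:**
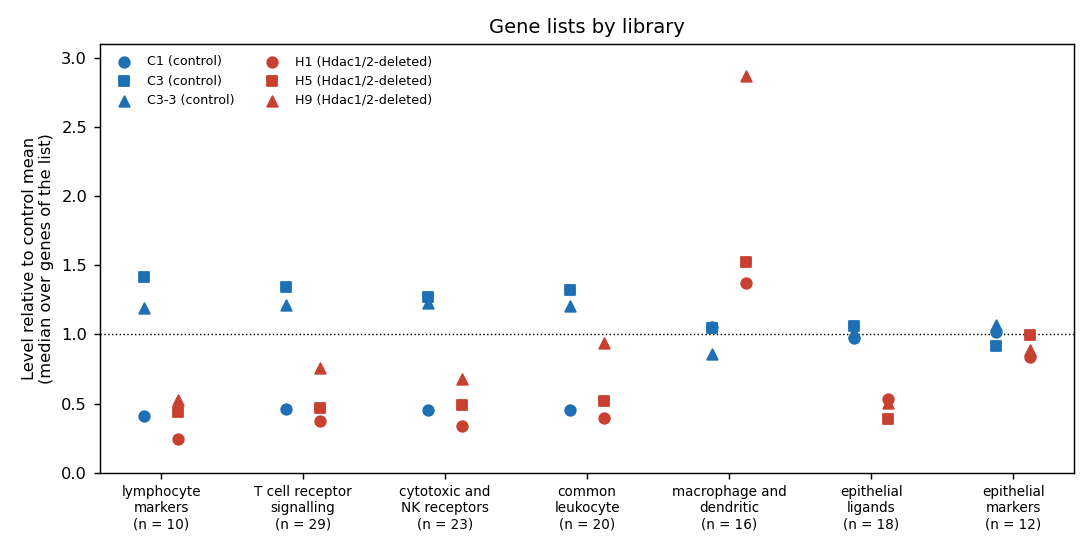
Level of 7 gene lists in each library, each gene set relative to its control mean and the median taken over the genes of the list in the table (n under each list). C1 stands at 0.41 for the markers and below the other controls for the T cell, cytotoxic and leukocyte lists, but beside them for epithelial ligands and epithelial markers.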

How the data were processed

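RNA-Seq libraries of EDTA-enriched jejunal epithelial cells from 3 wildtype and 3 villin-Cre Hdac1-/-; Hdac2-/- mice were analysed, grouped by the labels. The authors deposited raw counts per gene with Ensembl identifiers. The submitters' processing notes name STAR 2.4.0f1, bcl2fastq 1.8.4 and the build mm9, whereas the study's methods name GRCm38. The counting program, the annotation and the strand setting are not given in the sources used here. The deposited scaled columns (a score: the counts times about 1 factor per library, to within 1 count for 89.79% of genes in H5 and 99.36% to 99.99% in the others) and the authors' own comparison (log2 fold change, mean log2 CPM and p-values) were not used.

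Counts were tested with edgeR 4.0.16 (R 4.3.3): filterByExpr (15618 of 19616 genes kept), TMM, and the robust quasi-likelihood test, its p-values adjusted by Benjamini-Hochberg over all genes tested. Calls needed both a 2-fold change and an adjusted p up to 0.05. The steps were tested on simulated data. Ratios of CPM used an exact permutation test over mice. Exon lengths and positions were those of GENCODE on GRCm38, promoters those of RefSeq on GRCm38.p6. A count of 3, the detection floor, was 0.0405 to 0.0790 CPM, and covers counting error only.

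The markers, the other gene lists and the tests were chosen with earlier results of these data known. All 10 markers are named, and of each other list its counts and up to 6 members, taken by highest mean log2 CPM among those called and then, where fewer than 3 were called, among the rest. Where the rule names a gene that is not given, it is not reported here. Other genes of these lists were named after their values had been seen. Hdac1, Hdac2 and the 5 genes nearest to the markers' mean profile are named too. Alternatives were DESeq2 1.42.0, library totals in place of TMM, other low-count filters, another prior count, calls on adjusted p alone and leaving out each mouse. For the other lists these were added after the data had been seen. For the granzyme ratios, Cd3e alone was an alternative CD3 level.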

Additional observations from a re-analysis of the deposited data

How the results depend on the processing

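The number of markers called lower depended on single mice and on the test. It was 2 with edgeR and 6 with DESeq2, which added Cd3e, Cd7, Nkg7 and Gzma. Leaving out 1 mouse gave 0 to 8: 8 without C1, 1 without H5 or H9, and 0 without C3, C3-3 or H1, where 2, 2 and 1 markers had an unadjusted p under 0.05 in edgeR. The other alternatives kept 2. The log2 fold change of Cd8b1 ranged from -0.93 to 0.0586 with 1 mouse left out and was positive without C3-3 (0.0586) and without H1 (0.05). Of 130 values of single markers under an alternative, 108 kept their direction and side of the threshold, 11 became called, 9 lost a call and these 2 changed sign. The log2 ratios, with 1 mouse left out, ranged from 0.32 to 1.10 for Cd8b1 to Cd8a, from -0.76 to -0.24 for Gzma to CD3 and from -1.19 to -0.03 for Gzmb to CD3, each keeping its sign.

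Over all genes tested, adjusted p alone called 3198 higher and 3168 lower. Library totals in place of TMM moved the median of all genes by 0.19 and turned the calls from 49.42% higher and 50.58% lower to 61.56% and 38.44%. At 36111035 counts, H5 was the shallowest library, and Cd8b1, with 20 to 78 counts, was the marker whose precision depth limited most. The causes of these changes were not tested.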

Other observations

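The following ratios were chosen after their values had been seen and carry no test. Trdc, the delta receptor constant gene, stood to Trac at 2.43, 4.11 and 2.95 in C1, C3 and C3-3, and at 0.876, 0.627 and 1.98 in H1, H5 and H9, without overlap and with the Hdac1/2-deleted mice lower. C1, low in all the markers, was not apart from the other controls in this ratio. The ratio rests on Trac alone as denominator. Unlike Trac, the beta receptor constant genes Trbc1 and Trbc2 had log2 fold changes of -1.08 and -0.78, and ratios to them were not taken. Cd4 stood to Cd8a at 0.0324, 0.0135 and 0.0136 in C1, C3 and C3-3, and at 0.105, 0.10 and 0.165 in H1, H5 and H9, again without overlap and with all Hdac1/2-deleted mice higher.

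Cd3e stood to Ptprc at 0.811, 1.16 and 0.952 in C1, C3 and C3-3, and at 0.582, 1.36 and 0.714 in H1, H5 and H9, where the groups overlapped. Cd3e stood to Epcam, an epithelial surface gene, at 0.0036, 0.0156 and 0.0122 in C1, C3 and C3-3, and at 0.0036, 0.0089 and 0.0073 in H1, H5 and H9. Epcam itself was lower in the Hdac1/2-deleted mice without overlap, by less than 2-fold (log2 fold change -0.62, adjusted p = 0.0174, edgeR). That raises the ratio in those mice.

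Cd79b, a chain of the B cell receptor complex, was at 0.709, 1.55 and 1.19 CPM in C1, C3 and C3-3, and at 27.2, 40.7 and 30.3 CPM in H1, H5 and H9 (log2 fold change 4.84). Its partner Cd79a was at 0.282 to 1.19 CPM in controls and 0.263 to 0.504 CPM in Hdac1/2-deleted mice and was not called. Lcp1, an actin-bundling protein of leukocytes, was higher in the Hdac1/2-deleted mice (log2 fold change 1.63), whereas Cytip, a leukocyte adhesion regulator, was lower (-3.36).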
